A study of Mus musculus with 16 samples.

Results

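Expression of the steroid hormone receptors was examined in the mouse bladder at 2 ages and in both sexes. The genes were taken by symbol and are 8 of the 26781 genes tested: the estrogen receptors Esr1 and Esr2, the progesterone receptor Pgr, the membrane estrogen receptor Gper1, the glucocorticoid receptor Nr3c1, the mineralocorticoid receptor Nr3c2, the vitamin D receptor Vdr, and Fkbp5. Fkbp5 is not a receptor but a co-chaperone of the receptor complex, so the set holds 7 receptors and 1 partner protein. Classical steroid receptors are held by chaperones until hormone binds, and then act on DNA as transcription factors, whereas Gper1 is a G protein-coupled receptor of the cell membrane. Glucocorticoids strongly induce Fkbp5, whose protein lowers the hormone affinity of the glucocorticoid receptor. Estrogen receptors are known in urothelium and bladder muscle, and estrogen induces Pgr in many reproductive tissues.

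The bladder body of C57BL/6 mice was hybridized to 1-colour Agilent arrays, with 1 mouse on each of 16 arrays. The MAT group was 12 months of age and the AGED group 27 to 30 months, and each age and sex had 4 arrays. All values below are log2 processed signals minus the 75th percentile of the same array, so that 0 marks that percentile and a difference of 1 is a 2-fold change. Female arrays lay on 1 slide and male arrays on the other, and MAT arrays lay in row 1 and AGED arrays in row 2, so sex cannot be told apart from slide, or age from row. The replicate number was the column on the slide, so each of the 4 columns held 1 array of every group. AGED male replicate 1 was the dimmest array, with 52.4% of its probes well above background, against 58.7% to 68.3% on the others.

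Directions follow the deposited labels, and they oppose those printed in the study's own table of genes. By the labels, Chil3 and Mmp3 were higher and AI593442 and Kcnj5 lower in AGED mice of both sexes. The study's table gives the opposite direction for each. Whether the labels or the table are right was not tested. If the labels were exchanged, every age direction given here would reverse. For Chil3, one of the genes of that table, MAT males had a log2 signal of -2.95 ± 0.11 (SD, n = 4) and AGED males 2.73 ± 0.77 (SD, n = 4). All 9 urothelial and all 7 smooth muscle marker genes were well above background on each of the 16 arrays, and so were 7 of 7 fibroblast and 6 of 6 endothelium genes, whereas lists such as those of adipocytes and T cells were not complete on every array. Among 9 male accessory gland genes, 8 did not pass the filter on dim probes. Of 8 uterus and oviduct genes, 4 were tested. Those 4, led by Hoxa11, were well above background on each of the 16 arrays, male arrays included.

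The 8 genes had 12 probes, 9 of them well above background on all 16 arrays. For Esr1, Pgr and Nr3c1 more than 1 probe was present, and the kept probe with the highest mean was tested. Every gene had a tested probe, and 10 of the 12 probes were well above background on at least 4 arrays. The tested probes of Esr1, Esr2, Gper1, Nr3c1, Nr3c2, Vdr and Fkbp5 were well above background on all 16 arrays, and that of Pgr on all but AGED male replicate 1.

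None of the 8 genes passed the test for an age change in either sex. In AGED against MAT males limma called 0 of 8 under a threshold of 0.05 for the adjusted p and a 2-fold limit, while 0.848% of all genes tested were called. In AGED against MAT females it called 0 of 8, against 0.187% of all genes. The difference between the age changes of males and females, with no fold limit, was called for 0 of 8 and for 0.149% of all genes. At limma's unadjusted p under 0.05, 1 of 8 passed in males (Nr3c1; 16.3% of all genes), 1 of 8 in females (Pgr; 10.5%), and 0 of 8 for the difference between the sexes (9.88%). With the 2-fold limit, the methods' t-test without adjustment called 0 of 8 in males (1.85% of all genes) and 1 of 8, Pgr, in females (1.47%). With adjustment it called 0 of 8 in either sex, where it called 0 genes of all in males and 1 in females (0.00373%). Nr3c1 in males, short of 2-fold, had an unadjusted p of 0.0493 in that test. The groups did not overlap for 1 of 8 genes in males, against 7.85% of all genes, and for 1 of 8 in females, against 10.8%. By limma's unadjusted p and by overlap, a single gene of 8 is near the share of all genes.

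**Figure D1:**
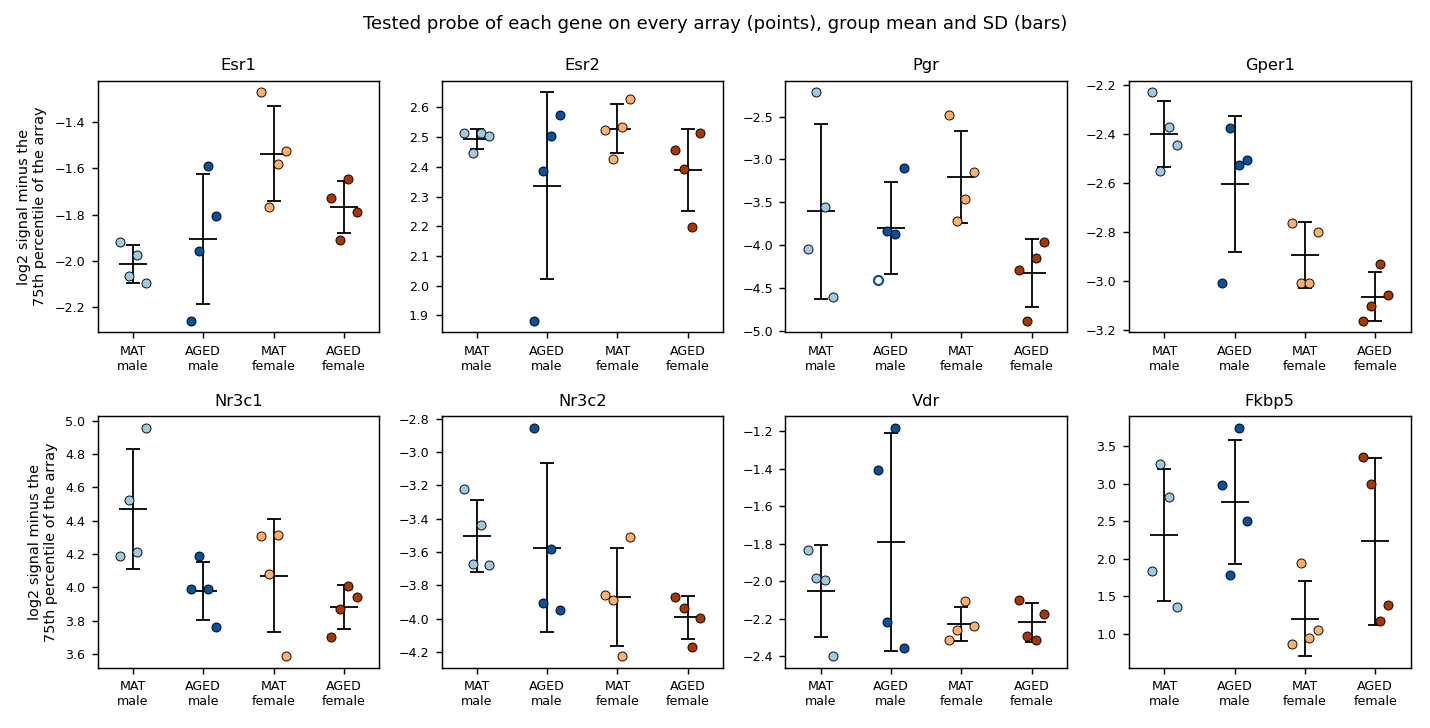
Log2 signal minus the 75th percentile of the array (y axis) for the tested probe of each gene, by group (x axis). Each point is 1 array, and bars give the mean and SD of 4 arrays. An open point was not well above background. Fkbp5 and Pgr spread most within groups, and the AGED female points of Pgr, from -4.89 to -3.96, lie below the MAT female points, from -3.72 to -2.48.

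The receptors for estrogen differed little with age. Esr1, the main nuclear estrogen receptor, had log2 signals of -1.92, -2.07, -1.97 and -2.10 in MAT males and -2.26, -1.96, -1.59 and -1.81 in AGED males. In MAT females they were -1.27, -1.77, -1.58 and -1.53, and in AGED females -1.73, -1.91, -1.65 and -1.79. AGED male arrays lay on both sides of the MAT male arrays, and the female groups overlapped. The log2 change was 0.11 (SE 0.14) in males and -0.23 (SE 0.14) in females, with limma adjusted p of 0.734 and 0.613. Its 95% intervals, from -0.197 to 0.417 and from -0.54 to 0.0741, leave out a 2-fold change in either direction. The male value ran from 0.00519 to 0.228 with single arrays left out. The difference between the sexes was 0.34 (SE 0.20, limma adjusted p = 0.628).

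On the tested Esr1 probe all 4 MAT males were below all 4 MAT females, with a log2 difference of -0.48 (SE 0.14), a two-sided exact permutation p of 0.0286, the smallest that 4 arrays against 4 allow, and a limma adjusted p of 0.154. With array weights limma's adjusted p was 0.0196, and over the alternatives it ranged up to 0.395. In AGED mice the difference was -0.14 (SE 0.14, limma adjusted p = 0.589) and the groups overlapped. A second Esr1 probe, A_55_P2030883, had a log2 difference of -0.07 in MAT and 0.25 in AGED mice, so the probes did not give the same sex difference. Averaging the kept probes turned the AGED difference to 0.06. The third Esr1 probe, A_51_P474658, was well above background on 1 array alone, AGED female replicate 1, at -4.21, with the other 15 arrays not well above background.

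Esr2, the second nuclear estrogen receptor, varied least in MAT males, with log2 signals of 2.52, 2.45, 2.51 and 2.51. AGED males had 1.88, 2.39, 2.50 and 2.58, and AGED female values ran from 2.20 to 2.51 against 2.43 to 2.63 in MAT females. The low AGED male value came from the dimmest array, and the groups overlapped in both sexes. The age change was -0.16 (SE 0.14) in males and -0.14 (SE 0.14) in females. Without AGED male replicate 1 the male change was -0.00584. Esr2 had 1 probe, and whether it measures Esr2 alone was not checked, since no probe sequence was used here.

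Gper1, which signals at the membrane, had log2 signals of -2.23, -2.55, -2.37 and -2.45 in MAT males and -3.01, -2.38, -2.53 and -2.51 in AGED males. MAT females had -2.76, -3.01, -3.01 and -2.80, and AGED females -3.16, -3.10, -2.93 and -3.06. Males were higher than females at both ages: all 4 MAT males exceeded all 4 MAT females, and 3 of 4 AGED males exceeded every AGED female, the exception being the dimmest array. The log2 sex difference was 0.49 (SE 0.14, limma adjusted p = 0.128) in MAT and 0.46 (SE 0.14, limma adjusted p = 0.0485) in AGED mice. For the MAT difference limma's adjusted p was 0.00388 with array weights and 0.0465 without AGED male replicate 1, in a range from 0.00388 to 0.299 over the alternatives. With no fold limit, Gper1 in AGED mice was thus 1 of 8 genes past the threshold, where 9.52% of all genes were. It stood at the threshold, since limma's adjusted p exceeded 0.05 with any of 14 of the 16 arrays left out and was 0.00474 without AGED male replicate 1. With the replicate number as a block limma's adjusted p was 0.0848. Over all alternatives, the methods' test included, the adjusted p ranged from 0.000505 to 0.191. Its age changes were -0.20 (SE 0.14) in males and -0.17 (SE 0.14) in females, and with normexp background correction the male value turned to 0.11. With single arrays left out the male value ran from -0.281 to -0.0708.

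Pgr, the progesterone receptor, showed the widest age difference of the 8 genes among females in the main fit. The log2 signals were -2.48, -3.72, -3.47 and -3.15 in MAT females and -4.29, -4.89, -4.16 and -3.96 in AGED females. In males they were -4.05, -2.22, -3.55 and -4.61 in MAT and -4.41, -3.84, -3.87 and -3.10 in AGED mice, the first AGED value not well above background. All 4 AGED females lay below all 4 MAT females, while all 4 AGED males lay within the MAT male range. The female log2 change was -1.12 (SE 0.43, 95% interval -2.05 to -0.194), or 2.18-fold lower in AGED females (exact permutation p = 0.0286, two-sided), but limma's adjusted p over all genes was 0.384, in a range from 0.11 to 0.724 over the alternatives. The female change was under 2-fold with normexp, at -0.71, and without MAT female replicate 1, at -0.879, the smallest in size with single arrays left out. It was also under 2-fold without AGED female replicate 2, the lowest AGED female value. The female change of Fkbp5 ran from 0.986 to 1.13 over the alternatives, so with normexp it was wider than that of Pgr. The male change of Pgr was -0.20 (SE 0.43), with an interval from -1.12 to 0.73 that holds a 2-fold fall. The difference between the sexes was 0.92 (SE 0.61, limma adjusted p = 0.674), and ran from 0.591 to 1.39 with single arrays left out. The male value rested on single arrays: it was 0.27 without MAT male replicate 2 and near 0 without AGED male replicate 1.

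The other Pgr probe, A_51_P213476, was dimmer and did not pass the filter. It was well above background in MAT females on replicates 1 and 4, at -5.34 and -5.85, and on no array of the other groups. Its AGED female values ran from -7.68 to -6.59 and, like 2 of the 4 MAT female values, were not well above background, so their order is not read. No fold is given because the MAT female mean did not exceed the lowest measurable signal.

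**Figure D2:**
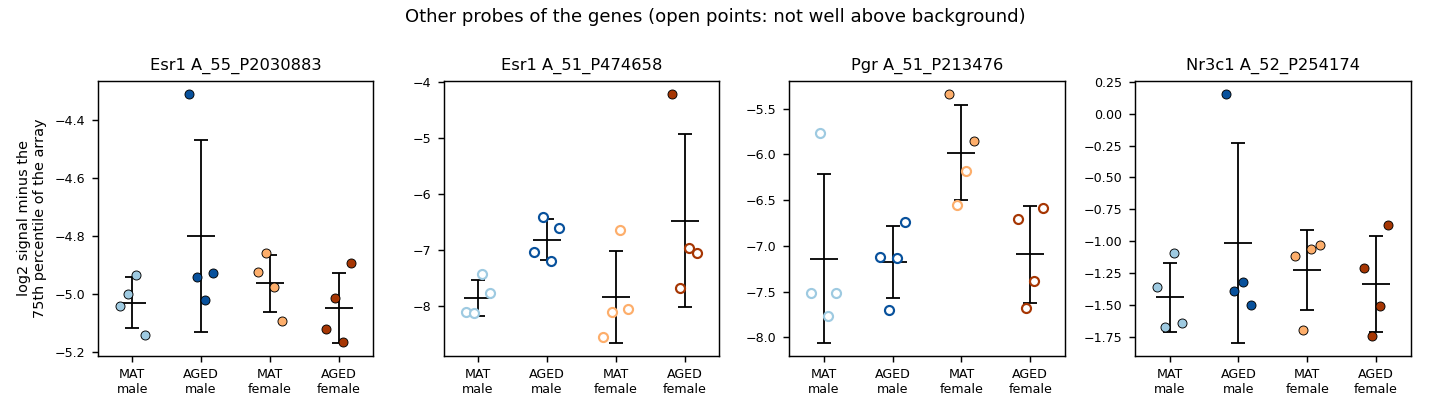
Log2 signal minus the 75th percentile of the array (y axis) for the 4 probes not tested for their gene, by group (x axis). Each point is 1 array, open where it was not well above background, and bars give the mean and SD of 4 arrays. The Pgr probe is open on all but 2 arrays, both MAT female, and the second Nr3c1 probe stands apart on AGED male replicate 1, at 0.16.

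The glucocorticoid receptor Nr3c1 had the largest age difference among males relative to its error. Its log2 signals were 4.19, 4.52, 4.21 and 4.96 in MAT males and 3.99, 4.19, 3.99 and 3.76 in AGED males. MAT females ran from 3.59 to 4.31 and AGED females from 3.71 to 4.01. Each AGED male lay below each MAT male, though the closest pair stood at 4.186 and 4.188, and the female groups overlapped. The log2 change was -0.49 (SE 0.19, 95% interval -0.895 to -0.083) in males and -0.19 (SE 0.19) in females. Limma's adjusted p was 0.217 in males and 0.797 in females. The second Nr3c1 probe, A_52_P254174, gave 0.43 (SE 0.32) in males, where AGED male replicate 1 stood at 0.16 and the other AGED males from -1.50 to -1.32, within the MAT male range of -1.67 to -1.10. The size of this change thus rests on 1 array. That array also stood apart in the summed signal of T cell genes, led by Lck, at 17.5 times the 75th percentile against 5.05, 3.56 and 3.84 times in the other AGED males. Its macrophage sum, led by Csf1r, was 133 times against 75.8, 69.6 and 75.4 times. The part of these cells in the probe's value was not tested. With the mean of both probes the male change was -0.03.

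Nr3c2, the receptor for aldosterone, had an age change of -0.07 (SE 0.22) in males and -0.12 (SE 0.22) in females. With single arrays left out the female value ran from -0.242 to -0.0028. The log2 signals of Nr3c2 ran from -3.68 to -3.22 in MAT males, -3.95 to -2.86 in AGED males, -4.23 to -3.51 in MAT females and -4.17 to -3.87 in AGED females. The ranges overlapped in both sexes. The male value turned to 0.13 with normexp background correction. Males against females differed by 0.37 (SE 0.22) in MAT and 0.42 (SE 0.22) in AGED mice, and limma's adjusted p passed 0.05 with array weights in MAT mice (0.0389, in a range up to 0.744) and with normexp in AGED mice (0.0126, in a range up to 0.594). Without AGED male replicate 1 the AGED difference was 0.178 and the male age change -0.312.

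Vdr, which binds active vitamin D, had log2 signals of -1.83, -1.98, -1.99 and -2.40 in MAT males and -1.41, -2.22, -1.18 and -2.36 in AGED males. Female values lay between -2.32 and -2.10 in both age groups. AGED males split into a pair above the MAT range and a pair within it. The age change was 0.26 (SE 0.22) in males and 0.01 (SE 0.22) in females, and normexp background correction turned the male value to -0.51, with a limma adjusted p of 0.247. With single arrays left out the male value ran from 0.0591 to 0.451. AGED males over AGED females differed by 0.43 (SE 0.22, limma adjusted p = 0.235), which normexp turned to -0.38 (limma adjusted p = 0.28).

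Fkbp5 varied more within groups than most genes, with an SD of 0.86 on the log2 scale, and 4.25% of the genes tested had a larger one. The log2 signals were 1.84, 3.27, 2.82 and 1.35 in MAT males and 2.99, 1.79, 3.75 and 2.50 in AGED males. MAT females had 0.87, 1.95, 0.95 and 1.05, and AGED females 3.36, 3.002, 1.18 and 1.39. AGED females fell into a high pair and a low pair, the latter within the MAT female range, and the lowest and highest of the 16 arrays were 7.36-fold apart. The age change was 1.03 (SE 0.55, 95% interval -0.153 to 2.21) in females and 0.44 (SE 0.55, interval -0.744 to 1.62) in males, with limma adjusted p of 0.541 and 0.723. Neither interval leaves out a 2-fold rise. With single arrays left out the change ran from 0.651 to 1.38 in females and from 0.108 to 0.761 in males, and with array weights it was 0.119 in males.

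**Figure D3:**
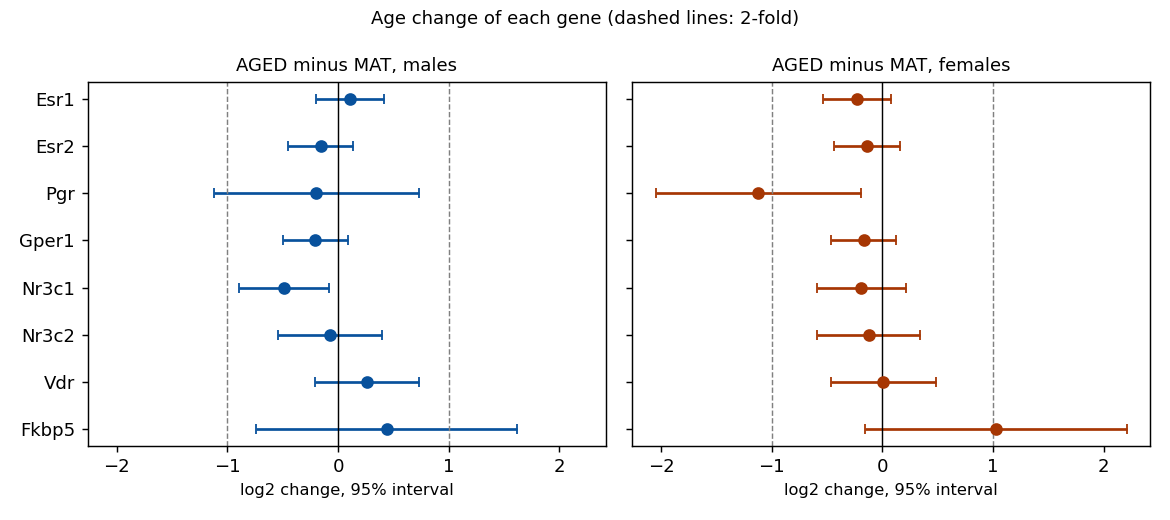
Log2 change of AGED against MAT mice (x axis) for each gene (y axis), males at left and females at right. Points are limma's estimates and bars their 95% intervals, with dashed lines at a 2-fold change. The intervals of Nr3c1 in males, -0.895 to -0.083, and Pgr in females, -2.05 to -0.194, leave out 0, and those of Pgr and Fkbp5 are the widest.

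In spread, Pgr came after Fkbp5, with a within-group SD of 0.67 that 9.27% of genes exceeded. Esr1, Esr2 and Gper1 were steady, with SDs of 0.19, 0.18 and 0.17, exceeded by 81.2%, 84.0% and 84.7% of genes. The median over all genes was 0.30.

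Between the sexes, limma called 0 of 8 genes at the 2-fold limit in MAT mice (0.157% of all genes) and 0 of 8 in AGED mice (3.11%). At the unadjusted p under 0.05, Esr1 and Gper1 passed in MAT mice (2 of 8; 14.1% of all genes) and Gper1 in AGED mice (1 of 8; 26.0%). The methods' t-test with the fold limit called 0 of 8 at both ages, where it called 2.28% of all genes in MAT and 3.74% in AGED mice without adjustment, and 0.314% and 0.172% with it. The sexes did not overlap for Esr1 and Gper1 in MAT mice (2 of 8; 18.8% of all genes) and for 0 of 8 in AGED mice (13.4%). For Fkbp5 the log2 difference of males over females was 1.12 (SE 0.55, limma adjusted p = 0.387) in MAT mice and 0.53 (SE 0.55, limma adjusted p = 0.586) in AGED mice. With single arrays left out these ran from 0.8 to 1.44 and from 0.173 to 0.902. Over the alternatives the AGED value ran from 0.12 to 0.751.

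Levels of marker genes are given beside these values for the sexes and then the ages, and no list was tested as a set. In MAT males against MAT females the median log2 difference was -3.11 over 6 adipocyte genes and -3.17 over 7 B and plasma cell genes. By limma's unadjusted p under 0.05, 5 of 6 and 5 of 7 were lower in MAT males, and 0 were called in either list. The summed adipocyte signal, led by Fabp4, was 52.5, 52.5, 54.3 and 49.2 times the 75th percentile of the array in MAT males and 112, 40.4, 47.7 and 48.4 times in MAT females. The summed B and plasma cell signal, led by Jchain, was 11.5, 9.75, 16 and 17.3 times in MAT males and 36.5, 52.6, 21.9 and 32.7 times in MAT females. B and plasma cell sums of the MAT sexes thus did not overlap, whereas those of adipocyte genes did. Sums of some other lists did not overlap between the MAT sexes either, with 0 genes called in each of these lists. Of the urothelial genes 9 of 9 were higher in MAT males, 5 of them at limma's unadjusted p under 0.05, with sums, led by Upk1a, of 601 to 771 times in MAT males and 531 to 597 times in MAT females. Smooth muscle sums, led by Cnn1, ran from 1100 to 1150 and from 960 to 1060 times, and endothelium sums, led by Egfl7, from 27.7 to 32.1 and from 20.9 to 25.3 times. All 7 T cell genes were lower in MAT males, with sums, led by Lck, from 3.25 to 4.17 against 5.11 to 6.77 times. In AGED mice the urothelial sums did not overlap either, at 675 to 782 times in males and 493 to 672 times in females. In AGED males against AGED females the median log2 difference was -2.61 over the adipocyte genes, with 4 of 6 lower at limma's unadjusted p under 0.05. It was -1.06 over the B and plasma cell genes and -0.40 over the fibroblast genes, with 6 of 7 below 0 in each, and limma called 0 in these 3 lists. Their sums overlapped between the AGED sexes. MAT female replicate 1, which had the highest Esr1 and Pgr signals among MAT females, had the highest adipocyte sum.

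With age, marker levels are likewise given for both sexes, and again no list was tested as a set. Of 4 neutrophil genes tested, 3 were above 0 in AGED against MAT males, each at limma's unadjusted p under 0.05. Limma called 2 of them higher, and Ly6g, Ngp and Ltf were not tested. The neutrophil sum, led by S100a9, was 0.64, 0.81, 0.29 and 0.26 times the 75th percentile in MAT males and 5.28, 1.38, 5.50 and 2.11 times in AGED males, so every AGED male was above every MAT male. In AGED males, where Nr3c1 was lower on its tested probe, the fibroblast sums, led by Dcn, ran from 309 to 514 times against 515 to 622 times in MAT males, with 3 of 7 genes lower at limma's unadjusted p under 0.05. Skeletal muscle sums, led by Acta1, ran from 18 to 42.2 against 43 to 61 times, with a median log2 change of -0.85 over 5 genes and Myh4 and Myog not tested, and limma called 0 in either list. In AGED against MAT females, where Pgr was lower without passing limma's adjusted test, the median log2 change was -1.16 over the 6 adipocyte genes. Of these, 6 of 6 were below 0. Over 7 nerve and glia genes it was -0.53, with 6 of 7 below 0. In AGED against MAT males the adipocyte median was -0.44, with 5 of 6 genes below 0. The male nerve and glia median was -0.28, with 6 of 7 below 0. The adipocyte sums overlapped, at 38.4, 62.9, 45.3 and 49.5 times in AGED females against the MAT female values above, of which replicate 1 alone stood apart. The summed nerve and glia signal, led by Ncam1, was 13.3, 12.2, 13.8 and 16.8 times in MAT females and 9.06, 11, 11 and 9.77 times in AGED females, without overlap. The 4 neutrophil genes were all above 0 in that comparison, at an unadjusted p under 0.05 by limma for 4 of 4, with sums of 0.703 to 1.81 times in AGED and 0.199 to 0.529 times in MAT females, and limma called 0 genes of these 3 lists in females. In AGED males 7 of 7 T cell (median log2 change 0.78) and 7 of 7 B and plasma cell genes (0.44) were above 0. In AGED females 7 of 7 T cell (-0.21) and 6 of 7 B and plasma cell genes (-0.75) were below 0. For macrophage genes 4 of 6 were above 0 in males (0.37) and 5 of 6 in females (0.56). The sums of these lists overlapped between the ages in both sexes, and limma called 0 of their genes with age. The part of these cells in the receptor values was not tested, and in whole bladder fewer cells of a type and less RNA per cell cannot be told apart.

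Other nuclear receptors were set beside these genes: 32 of the 36 listed were tested. In AGED against MAT males limma called 1 of the 32 lower by the adjusted p and the fold limit, and the median log2 change was -0.04 against 0.00102 over all genes. That median ran from -0.114 to 0.0128 with single arrays left out. Nr1i3, a receptor for foreign compounds and bile pigments, had log2 signals of -3.85, -4.21, -4.19 and -3.77 in MAT males and no array of an AGED male was well above background. It was at least 2.36-fold lower in AGED males (limma adjusted p = 0.00221) and at least 2.22-fold lower in AGED males than in AGED females (limma adjusted p = 0.00158). With normexp the log2 differences were smaller than these bounds, at -0.63 with age and -0.395 between the AGED sexes, the latter with a limma adjusted p of 0.0924. The age call was lost with males fitted alone (limma adjusted p = 0.0699) and in the methods' adjusted test (0.14). The call between the AGED sexes was also lost in that test (0.0804), and with normexp the age change was under the 2-fold limit. Over all alternatives the adjusted p ranged from 0.00102 to 0.14 for age and from 0.000884 to 0.0924 for sex.

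Esrra, an orphan receptor that drives genes of mitochondrial metabolism, had log2 signals of 3.91, 3.98, 4.05 and 4.02 in MAT males and 3.53, 2.95, 3.17 and 2.995 in AGED males. No value overlapped, and Esrra fell by 0.83 on the log2 scale (SE 0.15, limma adjusted p = 0.0108), under the 2-fold limit. Fitted in males alone, Esrra had an adjusted p of 0.147 with limma, and in the methods' adjusted test 0.191. With normexp it was past 2-fold, at -1.39 (limma adjusted p = 2.13e-05). In females limma called 0 of the 32 with the fold limit and 0 without it. The median was -0.11 (-0.139 to -0.0451 with single arrays left out). The 6 receptors of highest mean signal, Nr4a1, Nr1h2, Thra, Rxrb, Pparg and Rarg, had log2 changes from -1.30 (Nr4a1) to -0.03 in males and from -0.38 to -0.00793 in females, with limma adjusted p of 0.224 or more. The male value of Nr4a1 ran from -1.67 to -0.795 with single arrays left out, so its 2-fold size rested on single arrays.

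Chaperones and coregulators of the receptors showed no call: 0 of 25 in males and 0 of 25 in females by limma, where 2 and 0 had an unadjusted p under 0.05. Hsp90ab1 and Hspa8, chaperones that hold the receptors ready for hormone, and Bag1, a co-chaperone, gave the highest mean signals, and their log2 changes lay between -0.17 and 0.15 in males and between -0.09 and 0.05 in females. The medians were -0.07 and 0.02, and ran from -0.123 to -0.0257 and from -0.0387 to 0.0245 with single arrays left out.

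Among 22 genes induced by glucocorticoids, limma called 0 in either sex with age, and 3 in males and 1 in females had an unadjusted p under 0.05. The median log2 change was -0.13 in males, with 15 of 22 below 0, and it ran from -0.35 to 0.0101 with single arrays left out, above 0 without MAT male replicate 2. It was 0.18 in females (0.0913 to 0.284 with single arrays left out), with 17 of 22 above 0. In MAT males against MAT females 20 of 22 were above 0, with a median of 0.64 (0.409 to 0.749 with single arrays left out) against 0.08 over all genes, 0 calls and 7 at an unadjusted p under 0.05. The median for AGED mice was 0.13, against 0.08 over all genes. Mt1 and Mt2, which encode metallothioneins, and Anxa1 gave the highest mean signals, with log2 sex differences in MAT mice from 0.18 (Anxa1) to 0.82 (Mt2).

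The 16 tested genes induced by estrogen or progesterone had median log2 changes of -0.12 in males and -0.00763 in females. With single arrays left out these ran from -0.167 to -0.0203 and from -0.0791 to 0.132. Limma called 0 of 16 with age in either sex, and 2 in males and 3 in females had an unadjusted p under 0.05. C3, Xbp1 and Ccnd1 were the brightest, and C3, a complement component that estrogen induces in the uterus, had log2 changes of 0.67 in males and 0.65 in females without passing the test.

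For the mineralocorticoid pathway 10 genes were tested, and limma called 0 with age, with 3 in males and 0 in females at an unadjusted p under 0.05. Their medians were 0.27 in males (0.0488 to 0.421 with single arrays left out) and 0.02 in females (-0.0756 to 0.192). Atp1b1, a subunit of the sodium pump, had log2 signals of 2.74, 3.32, 3.97 and 3.59 in AGED males and 2.50, 2.22, 1.80 and 1.43 in AGED females. It was higher in each AGED male than in any AGED female, 2.67-fold in the mean (limma adjusted p = 0.0108), a call lost in the methods' adjusted test (0.129; range from 0.00376). Per1, a clock gene, and Wnk1, a kinase that regulates salt transport, were among the genes of highest mean signal. The log2 age change of Per1 was -0.14 (SE 0.44) in males and -0.04 (SE 0.44) in females, and that of Wnk1 was -0.00045 (SE 0.10) in males and -0.13 (SE 0.10) in females, and none passed the test.

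Of the vitamin D pathway 7 genes were tested and limma called 0 with age, with 1 in males and 0 in females at an unadjusted p under 0.05. Cyp2r1, which makes the circulating form of the vitamin, Rxra, the partner of Vdr on DNA, and Cyp27a1 had log2 changes from -0.19 to 0.29 in males and from -0.20 to 0.17 in females. Of the androgen-responsive genes 8 were tested, and limma called 0 with age, with 2 in males and 0 in females at an unadjusted p under 0.05. Tmprss2, Abcc4 and Ndrg1 were the brightest of them, with changes from -0.38 to 0.25 in males and from -0.21 to 0.38 in females. Between the AGED sexes Ndrg1 was 1.48-fold higher in males (limma adjusted p = 0.0279), under the 2-fold limit.

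Of the enzymes that make or inactivate steroids 21 were tested, and limma called 1 lower in AGED males, 0 in AGED females and 1 higher in males at both ages. The median log2 age change was 0.03 in males (-0.0786 to 0.0377 with single arrays left out) and 0.04 in females (0.0041 to 0.102), and 6 in males and 2 in females had an unadjusted p under 0.05. Hsd17b2, which oxidizes estradiol and testosterone to weaker forms, had log2 signals of 1.69, 2.07, 1.35 and 1.64 in MAT males and -0.59, 0.58, 0.12 and 0.84 in AGED males. MAT females ran from 0.38 to 0.79 and AGED females from 0.29 to 0.77. All MAT males stood above all other arrays. Hsd17b2 was 2.73-fold lower in AGED than in MAT males (log2 change -1.45, SE 0.25; limma adjusted p = 0.0103, or 0.166 with males fitted alone and 0.308 in the methods' adjusted test).

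Sult1e1, the estrogen sulfotransferase that inactivates estrogens, was high in males. The log2 signals were 1.24, 0.16, 0.75 and 0.81 in MAT males and 0.27, 0.34, -1.97 and 0.14 in AGED males. Among females it was well above background on replicate 1 of each age alone, at -6.01 in MAT and -3.78 in AGED mice. Every male array exceeded every female array. Limma called the sex difference in MAT mice (adjusted p = 7.63e-06) and AGED mice (adjusted p = 0.000249). Its fitted log2 values of 7.36 and 5.17 are not measured sizes, because 3 of 4 female arrays at each age were not well above background, and they ranged from 4.85 to 7.49 and from 3.63 to 5.24 over the alternatives. In AGED mice the call was lost in the methods' adjusted test (0.0683, in a range from 2.32e-05). Srd5a1, which reduces testosterone, and the dehydrogenases Hsd17b10 and Hsd17b4 gave the highest mean signals in this list, with age changes from -0.23 to -0.04 in males and from -0.22 to 0.21 in females.

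For each of the 8 genes except Pgr, the genes most like it over the 16 arrays were found by the mean absolute difference of values standardized per gene, among 13389 genes well above background on all arrays, a condition the tested Pgr probe did not meet. For Gper1 these were Klhdc9 and Gab1, at 0.25 and 0.27 SD, where the median over all genes was 1.04. The nearest of so many genes lie below the median by the choice itself, and no likeness was tested. Fkbp5 was most like Frk and Hecw2 (0.34 and 0.35 SD), and Vdr most like Tbk1 and Lcorl (0.32 and 0.38 SD). The remaining pairs were Whamm and Trmt1l for Esr2 (0.32 and 0.34 SD), Slc2a8 and Sqstm1 for Nr3c2 (0.35 and 0.40 SD), Mocs3 and Mb21d2 for Nr3c1 (0.40 and 0.42 SD), and Ppp1r8 and Usp34 for Esr1 (0.42 SD each).

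Promoters from RefSeq (GRCm38.p6) were searched on both strands for the receptor half-sites AGGTCA, bound by estrogen receptors, and AGAACA, bound by glucocorticoid, mineralocorticoid and progesterone receptors. Of the 8 promoters found, for 7 of the 8 genes, 0 held either motif, against 16.3% and 19.0% of all 32851 promoters of the same length. The gene not matched was Nr3c1.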

How the data were processed

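RNA of 16 bladders was measured on Agilent SurePrint G3 arrays. The authors deposited an intensity per spot from Feature Extraction (9.1 in the submitters' processing notes, 10.7.3.1 in the file headers), background-subtracted and not scaled between arrays. The authors also gave log2 values, centred per probe. After removal of a constant per array these matched the centred log2 signals used here (lowest correlation 1.00). Processed signals were taken to log2, less the 75th percentile of each array. Control spots and outlier-flagged spots were left out (399 probe values) and replicate spots averaged. Of 55681 probes, 26582 were named through accessions in GRCm38.p6, and 36974 were kept as well above background on at least 4 of 16 arrays. Among the 26781 genes tested 15933 had a symbol, and shares of all genes also count those without one. Groups came from the deposited labels. All 16 arrays entered 1 limma 3.58.1 model of group means (R 4.3.3, 12 residual degrees of freedom), with Benjamini-Hochberg adjustment over all genes and a threshold of 0.05. Calls also needed a 2-fold change, except for the difference of the age changes. A fold marked "at least" sets each dim array to the lowest well-measured signal where its own is lower. The number of arrays limits the precision.

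The members and lists were chosen with earlier results of these data known. Named genes are the members with every probe, the called genes and the 3 brightest of each list (6 for nuclear receptors), and the 2 genes most like each member. For 1 gene that this rule names, no value is reported here. Esrra and the marker genes named were chosen after their values were seen. Alternatives covered scaling, background, filters, probes, tests, array weights, blocks and left-out arrays. The procedure was tested on simulated data. Tables and figures were made with Python 3.11.15.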

Additional observations from a re-analysis of the deposited data

Results flagged for a closer look

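Within groups of 4 arrays, 5 of the 48 pairs of a probe and a group held a value far from the other 3 (10.4%), by Dixon's ratio of the gap to the range. Chance marks about 1 in 20 groups. The second Nr3c1 probe, A_52_P254174, stood at 0.16 on AGED male replicate 1 against -1.50 to -1.32 on the other AGED males (ratio 0.891), and at -1.70 on MAT female replicate 2 against -1.12 to -1.03 (ratio 0.865). The Esr1 probe A_55_P2030883 stood at -4.31 on AGED male replicate 1 against -5.02 to -4.93 (ratio 0.872). The dim Pgr probe A_51_P213476 was at -5.77 on MAT male replicate 2 against -7.76 to -7.52 (ratio 0.877), none of these well above background. Esr2 was at 2.45 on MAT male replicate 2 against 2.51 to 2.52 (ratio 0.857), a gap smaller than most SDs between arrays.

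Of 16 pairs of an array measure and a group, 3 stood apart. The 75th percentile (log2) was 9.39 for AGED male replicate 1 and 10.13 to 10.24 for its group (ratio 0.871). The median signal of MAT female replicate 3 was 94.4 against 98.3 to 98.7 (ratio 0.907), and MAT male replicate 4 had a median background of 30.5 where the others had 32.0 each (ratio 1.0).

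The Esr1 probe A_51_P474658, which was not tested, was well above background on 1 AGED female array and on no MAT female array.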

How the results depend on the processing

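The count of 0 members called with age in males, for the difference of the age changes and between MAT sexes held under all alternatives, and with each array left out in turn it stayed at 0 in all 5 comparisons (range 0 to 0). For AGED against MAT females it was 1 (Pgr) at an unadjusted p with 2-fold, by the methods' t-test and by limma. Between AGED sexes it was 1 (Gper1) with no fold limit. Among all genes the male count of 227 ranged from 0 (methods' t-test, adjusted) to 759 (normexp) and the female count of 50 from 1 (the same t-test) to 509 (limma unadjusted); without single arrays they ranged from 122 to 380 and from 1 to 127. With the replicate number, which is also the slide column, as a block, 183 genes were called in males and 3 in females, and 0 members in either; same-numbered arrays had correlations of deviations from -0.147 to 0.156, so they were not taken as pairs. With slide as a random block the fit was the main one, since slide is part of the sex groups.

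Some directions turned, none of a called value, and the cause was not tested. With normexp, the log2 change in males became 0.0658 for Pgr, 0.11 for Gper1, 0.13 for Nr3c2 and -0.51 for Vdr (0.26 without it), and the AGED sex difference 0.00323 for Esr1, 0.022 for Esr2 and -0.38 for Vdr (0.43 without it); normexp moved the median of all genes to 0.11 in males and to 0.24 between AGED sexes. With array weights Pgr in males became 0.0191 and Esr2 between AGED sexes 0.0358. The mean of kept probes gave 0.0562 for Esr1 between AGED sexes, and median scaling -0.0144 for Vdr in females. Without single arrays, values ranged from -0.53 to 0.27 for Pgr and -0.312 to 0.0529 for Nr3c2 in males, from -0.0308 to 0.0515 for Vdr in females, and from -0.13 to 0.10 for Esr2 between AGED sexes. Of the 8 tested probes, only that of Pgr was not well above background on all 16 arrays, falling short on 1.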

Other observations

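Beside the split of Fkbp5 among AGED females, values of 2 other genes induced by glucocorticoids are given, chosen after they were seen. In AGED females the log2 signal of Mt1 was 6.92, 6.84, 5.81 and 5.91 on replicates 1 to 4, and that of Mt2 was 6.78, 6.42, 5.38 and 5.56, where Fkbp5 had 3.36, 3.002, 1.18 and 1.39. In AGED males Mt1 was 6.73, 6.63, 7.23 and 6.68, Mt2 was 5.17, 5.73, 7.28 and 6.54 and Fkbp5 2.99, 1.79, 3.75 and 2.50. In MAT females Fkbp5 was highest on replicate 2, at 1.95, whereas Mt1 and Mt2 were highest on replicate 4, at 6.16 and 5.62. In MAT males Fkbp5, Mt1 and Mt2 were all highest on replicate 2, at 3.265, 7.061 and 6.516. The relation was not tested.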
